A study of Mus musculus with 4 samples.

Results

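The p53-linked miRNAs miR-34, miR-192, miR-194 and miR-215 were compared between activated mouse T cells given Foxp3, the master regulator of regulatory T cells, by transduction and activated T cells given a control vector. Of the 171 miRNA probes on the arrays, 6 were chosen by their IDs, 1org-34a, 1org-34b, 1org-34c, 1org-192, 1org-194 and 2org-215. The other 7 of the 178 probes in the value table were control RNAs. The rule used the IDs alone, but it was set with earlier results of these data known. Both RNAs were hybridised together to 2-colour arrays, 2 at 96 h and 2 at 72 h, with the dyes exchanged between the 2 arrays of a time point. They are called the Cy5-Foxp3 and the Cy3-Foxp3 array after the dye of the Foxp3 RNA. All cells were activated and transduced, so no comparison holds resting or untransduced cells. Mouse strain, age, sex, T cell subset and the kind of vector are not given in the labels. Neither Foxp3 nor p53 mRNA was measured, and a ratio between samples cannot show whether T cell miRNAs were abundant, so the labelled cell type could not be checked.

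The p53 protein, a transcription factor activated by DNA damage and other stress, induces the genes of miR-34a and of the miR-34b/c cluster. Their products repress cell cycle and survival mRNAs. In human cells, p53 also induces miR-192, miR-194 and miR-215, which are best known from gut, liver and kidney, where they are abundant. A miRNA recognises its targets mainly through its seed, bases 2 to 8, so miRNAs with the same seed share many targets.

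No mature 5p sequence of miR-34c was in the reference used, so none is shown. The 5 mature sequences below show how the other miRNAs named by the probe IDs group by seed. They come from RefSeq (GRCm38.p6), the seed is in capitals, and both genes of miR-194 give the same mature sequence.
mmu-miR-34a-5p: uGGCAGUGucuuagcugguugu
mmu-miR-34b-5p: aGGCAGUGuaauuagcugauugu
mmu-miR-192-5p: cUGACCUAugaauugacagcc
mmu-miR-215-5p: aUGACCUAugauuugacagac
mmu-miR-194-5p: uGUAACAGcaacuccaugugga
They hold 3 distinct seeds. MiR-34a-5p and miR-34b-5p share a seed and differ by 4 single-base edits. MiR-192-5p and miR-215-5p share another and have 18 of 21 bases in common. MiR-194-5p has a seed of its own, but its genes lie beside those of miR-192 and miR-215. The Mir194-2 copy (chr19:6264658-6264679, plus strand) comes from a hairpin 115 bases before that of Mir192 (chr19:6264857-6264877, plus strand). The Mir194-1 copy (chr1:185313325-185313346, plus strand) comes from a hairpin 195 bases before that of Mir215 (chr1:185313610-185313630, plus strand). Mir34b (chr9:51103610-51103632, minus strand) has Mir34c as its neighbour, and Mir34a is at chr4:150068473-150068494 on the plus strand. The probes' own sequences, and the arm each one detects, were not used here, so signal shared between near-identical miRNAs cannot be told apart.

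The names of the miR-34 probes are not settled. The platform annotation lists 1org-34a as Mir34c and 1org-34c as Mir34a, crossed relative to their IDs, and 1org-34b as Mir34b. It lists 1org-192 as Mir192 and does not list 1org-194 or 2org-215. All are called by their probe IDs below.

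The values are the log ratios of the authors' deposited table, taken as base 2, on which every fold below rests. The direction of the ratio was not given. It was read as Cy5 over Cy3, with the sign turned on Cy3-Foxp3 arrays, so a positive value means likely higher with Foxp3 (the likely reading). The alternative is that all values were already turned to Foxp3 over control, and its values are given for the main results. Pearson's r between the paired arrays' deposited values, across the 171 miRNA probes, was -0.12 for 96 h and 0.66 for 72 h, which does not decide between the readings. The 96 h Cy5-Foxp3 array lay apart from the rest with a median of 1.27, against 0.02 on the other 96 h array and -0.59 and -0.83 at 72 h. The arrays of a time point were taken to share their RNAs, which no label states, and count as 1 replicate. Thus n is 2 time points, which no label places in separate cultures and whose spread may be technical, and precision is limited by how few arrays there are.

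Over both time points, none of the 6 probes passed the test, and the largest mean was that of 1org-192. In these bulk RNAs, fewer cells with a miRNA and less of it per cell cannot be told apart. Limma's fit over all 171 probes, at a Benjamini-Hochberg adjusted p under 0.05, called 0 probes (0%), while 16 had an unadjusted p under 0.05, 1org-192 among them. The mean log2 ratio of 1org-192 was 1.13 ± 1.69 (SD, n = 2; limma 95% interval 0.19 to 2.08, adjusted p = 0.326). Limma gave each of the 6 probes the same standard error, 0.48, from a pooled SD of 0.68. Its intervals and p-values thus do not reflect each probe's own SD, which for 1org-192 was 1.69. The means of 2org-215 and 1org-194 were 0.66 ± 0.78 and 0.42 ± 0.55 (SD, n = 2). Probes 1org-34b and 1org-34a averaged 0.60 ± 0.85 and 0.38 ± 0.43 (SD, n = 2). Only 1org-34c, among the 6, had a mean below 0, at -0.54 ± 0.40 (SD, n = 2). Limma's adjusted p was 0.578 to 0.632 for these 5, and their 95% intervals all included 0, the widest bounds being -1.48 for 1org-34c and 1.60 for 2org-215. In the already turned reading the means ran from -0.58 for 1org-34b to 0.39 for 1org-34c, with a limma adjusted p of 0.998 for each. For the 6 probes, the absence of calls in the likely reading did not hold without the 72 h Cy5-Foxp3 array, but held without any other array. Probes outside the 6 were called as well without the 72 h Cy5-Foxp3 array, so such calls were not particular to the 6. With that array left out, the remaining 72 h array gave each probe but 1org-34c a value of 0.80 to 1.12. With the 72 h Cy3-Foxp3 array left out instead, the same probes had -1.13 to -0.73 at 72 h. A single array of a dye pair keeps any dye effect in the ratio, so neither fit can separate it from Foxp3.

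**Figure D1:**
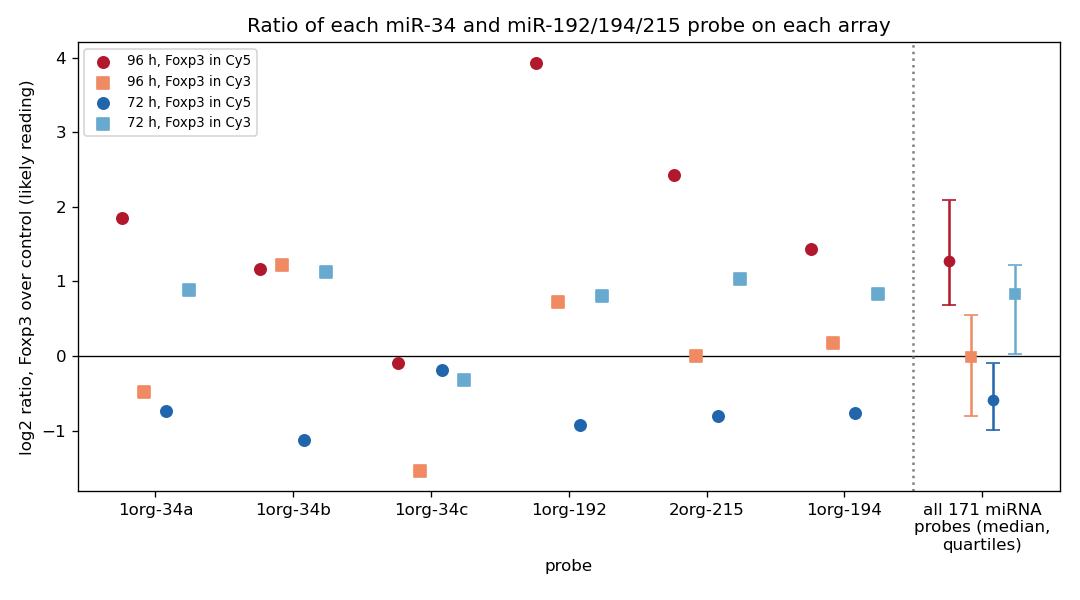
Log2 ratio of Foxp3 over control in the likely reading (y axis) for each of the 6 probes (x axis), 1 point per array, with the median and quartiles of all 171 miRNA probes at the right. Of the probes, 5 have 1 positive and 1 negative 72 h array, while 1org-34c lies below 0 on all 4 arrays and 1org-192 reaches 3.93 on the 96 h Cy5-Foxp3 array.

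At 96 h, the miR-34 probes parted. Probe 1org-34b had 1.17 on the Cy5-Foxp3 array and 1.22 on the Cy3-Foxp3 array, a mean of 1.19 or 2.29-fold likely higher with Foxp3. In the likely reading its 2 arrays lay closer together than those of the other 5 probes, whereas as deposited their gap was 2.39, against 1.36 for 1org-34a. Probe 1org-34a had 1.84 and -0.49, with opposite signs on the 2 arrays. Probe 1org-34c had -0.10 and -1.54, a mean of -0.82 or 1.76-fold likely lower, and both arrays lay on the same side. It was thus the annotation's Mir34a, not the probe with 34a in its ID, that lay on the likely lower side.

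Among the probes of the seed of miR-192 and miR-215, 1org-192 had 3.93 and 0.73 at 96 h. Its mean of 2.33 (5.02-fold) ranked 1 of 171 in the likely reading, but 17 of 171 in the already turned reading, at 1.60. That 1.60 averaged opposite signs, 3.93 and -0.73. In either reading the mean rested mostly on the Cy5-Foxp3 array, whose median was itself 1.27. Probe 2org-215 had 2.43 on that array and -0.002 on the other, so its mean of 1.21 came from 1 array. Probe 1org-194 had 1.44 and 0.17 and a mean of 0.81, equal to the median of all miRNA probes at 96 h. In the already turned reading its mean was 0.63, from opposite signs, 1.44 and -0.17. On the Cy5-Foxp3 array the 3 probes thus all lay above the array's median. There 1org-192 ranked 11 and 2org-215 28.5 of 171, but 1org-194 ranked 71 and lay only 0.17 above the median. Probe 1org-34a, which is not among these 3, had a higher value there than 1org-194, at 1.84 (rank 54). On the other array the 3 probes ran from 0.73 to about 0.

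Counted past 1.5-fold with 1 sign on both 96 h arrays, 3 of the 6 probes were likely higher (1org-34b, 1org-192 and 1org-194), where 46.2% of all miRNA probes were. The share of the 6 is near that background. On the likely lower side stood 1 of the 6, 1org-34c, where 5.26% of all miRNA probes did. With 1 replicate per time point there was no test of these values. Subtracting each array's miRNA median lowered the time point means by 0.62 at 96 h and by 0.12 at 72 h. With it, 2 of the 6 were past 1.5-fold on the likely higher side, 1org-192 at 1.71 and 2org-215 at 0.59, just past the limit of 0.58, where 17.5% of all miRNA probes were. Centred, 1org-34b had opposite signs, at -0.10 and 1.24, and 1org-34c stood at -1.44 on the likely lower side, where 25.1% of all miRNA probes were. Probe 2org-215, centred, had only 0.02 on the Cy3-Foxp3 array. In the already turned reading, without centring, 2 of the 6 were higher, 2org-215 at 1.21 and 1org-34a at 1.16, where 33.9% of all miRNA probes were. There 2org-215 met the sign rule by 0.002, its value on the Cy3-Foxp3 array. That reading put 1org-34b at -0.03 and 1org-34c at 0.72, so both changed sides.

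At 72 h, the 2 deposited values of a probe were close to each other despite the exchanged dyes, so that the likely reading put 5 of the probes near 0. As deposited, on the Cy5-Foxp3 and Cy3-Foxp3 arrays, 1org-34b had -1.13 and -1.12. Probe 1org-194 had -0.77 and -0.83, and 1org-192 had -0.92 and -0.80. Probe 1org-34a had -0.73 and -0.88, and 2org-215 had -0.81 and -1.03. The gap between the arrays was under 0.25 for these 5, as it was for 32.7% of all miRNA probes, whose median gap was 0.39. That limit was not planned and lies just above the largest gap of the 5, 0.22 for 2org-215. It thus cannot serve to compare the 6 with all miRNA probes. The turned means of these 5 ran from -0.06 to 0.11. By contrast, the already turned reading put all 5 past 1.5-fold lower, at -1.12 to -0.80, where 53.2% of all miRNA probes were. Probe 1org-34c was the exception, at -0.19 and 0.32 as deposited, with a turned mean of -0.26 and 0.07 in the other reading. None of the 6 passed 1.5-fold on both 72 h arrays in the likely reading, where 2.34% of all miRNA probes were likely higher and 5.26% likely lower. Read from the Cy5-Foxp3 array alone 5 of the 6 passed, all likely lower, as did 94 of the 171 probes in either direction. From the Cy3-Foxp3 array alone the same 5 passed, all likely higher, as did 124 of the 171 in either direction.

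**Figure D2:**
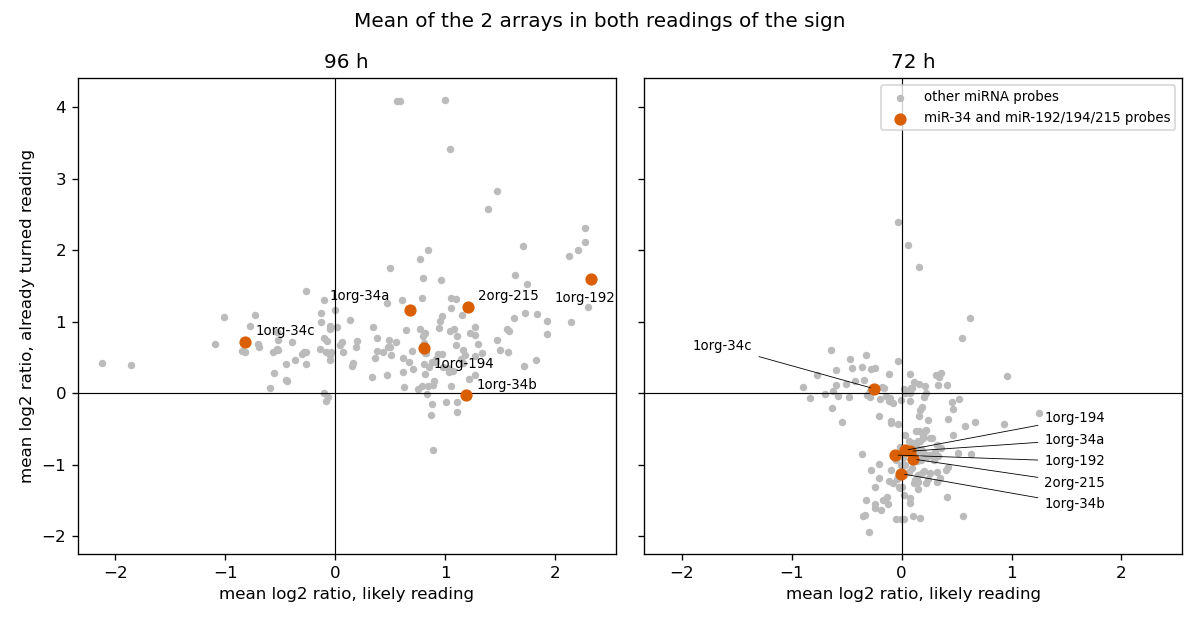
Mean log2 ratio of the 2 arrays in the likely reading (x axis) against the already turned reading (y axis) at 96 h and at 72 h, 1 point per miRNA probe with the 6 probes in orange. At 72 h 5 of them lie near 0 on the x axis and at -1.12 to -0.80 on the y axis, and at 96 h 1org-192 has the highest x value, 2.33.

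Of the 6 probes, 1org-34c alone had 1 sign on all 4 arrays, a state found on the likely lower side for 5.85% of all miRNA probes. It did not keep that sign after centring on the miRNA medians, where the 72 h Cy5-Foxp3 array stood at 0.40. As deposited it had both signs at each time point, so in the already turned reading none of the 6 had 1 sign on all 4 arrays, where 7.02% of all miRNA probes did, all of them higher.

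Between the time points, 1org-34b was the 1 probe of the 6 whose arrays did not overlap with at least 1.5-fold between the means, where 4.68% of all miRNA probes were so placed on the higher side. Its 96 h arrays were 1.17 and 1.22, against -1.13 and 1.12 at 72 h, a difference of 1.20, with the higher 72 h array just below the lower 96 h one. The difference of 1org-192 was larger, at 2.39, but its arrays overlapped, with 0.73 at 96 h against 0.80 at 72 h. A Foxp3 by time term in limma over the 4 arrays passed neither (adjusted p = 0.990 for each of the 6), and the 2.39 of 1org-192 had an unadjusted limma p of 0.0939. The error of that fit comes from dye partners. If these share their RNAs, as taken here, its p covers technical spread only. The count of 1 (12 of the 171 probes in either direction) depended on single arrays. It was 5 without the Cy3-Foxp3 array of 96 h (120 of 171) and 5 without that of 72 h (104 of 171). It was 2 without the 96 h Cy5-Foxp3 array (56 of 171) and 0 without the 72 h Cy5-Foxp3 array (22 of 171). In the already turned reading 4 of the 6 were higher at 96 h without overlap, where 67.8% of all miRNA probes were.

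The probes were then compared by the root mean square (RMS) difference of their values over the 4 arrays, a measure that neither the reading nor the centring changes. Over all pairs of miRNA probes its median was 1.07 on the log2 scale. Probe 1org-34c differed from each of the other 5 by 1.29 to 2.41, all above that median, while 7 of the 10 pairs without it lay below. Closest among the 6 were 2org-215 with 1org-34a, at 0.386, and 1org-194 with 1org-34a, at 0.388, which share no seed. The pair with the seed of miR-192 and miR-215, 1org-192 and 2org-215, differed by 0.85. Probes 1org-194 and 2org-215, whose genes include a neighbouring pair, differed by 0.51, and 1org-194 and 1org-192 by 1.28. Among the miR-34 probes, whose names are not settled, 1org-34a and 1org-34b differed by 0.95, and 1org-34b and 1org-34c by 1.74. Shared seed or neighbouring genes thus did not order the pairs. At 72 h alone, by contrast, the 5 probes other than 1org-34c differed from each other by 0.33 or less.

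The probe nearest to 1org-34c was 2org-19a, listed as Mir19a of the miR-17 cluster, at an RMS difference of 0.10, followed by 1org-142-as at 0.20. Next came 2org-34 at 0.21, a probe outside the rule whose ID carries the number without a letter and which was added after its values were seen. It had 0.18 and -1.72 at 96 h and -0.17 and -0.04 at 72 h. From 1org-34a it differed by 1.17. Thus the values of the probe with the plain number lay closer to those of 1org-34c, which the annotation names Mir34a, than to those of 1org-34a. The nearest to 1org-34a was 2org-139 (Mir139), at 0.16, with 1org-124a next at 0.24. Nearest to 1org-34b were 1org-186 at 0.18 and 1org-134 at 0.23. Nearest to 1org-192 were 1org-126* at 0.32 and 2org-216 at 0.35, to 1org-194 were 1org-301 (Mir301) at 0.12 and 2org-147 at 0.17, and to 2org-215 were 1org-290 (Mir290a) at 0.15 and 1org-188 at 0.20.

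**Figure D3:**
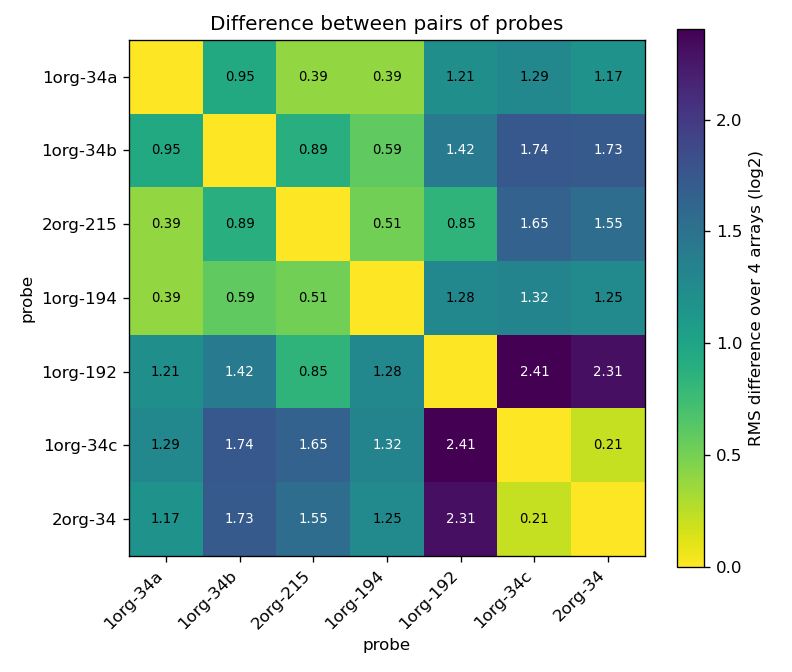
RMS difference of the log2 ratios over the 4 arrays between each pair of the 6 probes and 2org-34 (both axes are probes, the colour scale is in log2 units). Probes 1org-34c and 2org-34 differ by 0.21 from each other and by 1.17 to 2.41 from the remaining 5.

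Other miRNAs tied to p53, mostly by work in human cells, were then set beside them, by lists of probe IDs. None passed limma in the likely reading. For the 6 probes themselves the median log2 ratio was 1.00 at 96 h and 0.01 at 72 h, against 0.81 and 0.07 for all miRNA probes. The already turned reading gave the 6 medians of 0.94 at 96 h and -0.84 at 72 h, against 0.65 and -0.67 for all miRNA probes.

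Of 8 others induced or processed under p53, all had a probe, and their median was 0.58 at 96 h and 0.07 at 72 h (already turned 0.56 and -0.26). In the likely reading the highest mean was that of 1org-141, a miRNA of the epithelial miR-200 family, with 1.73 at 96 h and -0.21 at 72 h (already turned 1.13 and -1.19). The lowest was that of 1org-15a (Mir15a), a repressor of Bcl2, with -0.85 and -0.58 (already turned 0.59 and -0.04). The order depended on the reading, as the already turned means ran from -0.14 for 1org-145 to 2.93 for 2org-200c. In that reading limma called 1 of the 8, 2org-200c (adjusted p = 0.0139), where 1.75% of all miRNA probes were called. Those were 3 of the 171 probes, and all 3, 2org-200c included, were on the list of epithelial miRNAs used below.

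Of 5 miRNAs that target p53 mRNA, 4 had a probe, with medians of 0.59 at 96 h and 0.00 at 72 h (already turned 0.58 and -0.60). In the likely reading they ran from 1org-125a, with 1.14 at 96 h and 0.21 at 72 h, to 2org-25 (Mir25), with -0.45 and -0.32. The already turned means had the opposite order, with -0.31 for 1org-125a the lowest and 0.47 for 2org-25 the highest. The list for the miR-17-92 cluster, which p53 represses, matched 5 probes, with medians of -0.70 at 96 h and -0.24 at 72 h (already turned 0.65 and 0.28). The lowest of these was 1org-20 (Mir20a), at -1.09 and -0.64, and the highest 1org-92, at -0.04 and -0.12. In the already turned reading 1org-20 had instead the highest mean of the 5, at 0.64. The list did not hold 2org-17-3p, whose ID names the other arm of miR-17. Looked up after the other values were known, it lay on the other side, at 1.47 at 96 h and 0.18 at 72 h. Centring on the miRNA medians put the 96 h median of the 8 p53-induced or p53-processed probes at -0.04, that of the 4 p53-targeting probes at -0.03, that of the 5 listed miR-17-92 probes at -1.32 and that of the 6 at 0.38.

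Probes for miRNAs of other cell types were also mostly above 0 at 96 h, as were 127 of the 171 miRNA probes (102 of 171 at 72 h). All 6 epithelial probes (of 7 IDs listed, 1org-141 and 2org-200c also being on the first p53 list) lay above 0 at 96 h, with means of 0.56 to 1.73. At 72 h 4 of the 6 did, with means of -0.21 to 0.16. The 1 liver probe, 1org-122a, had 0.89 at 96 h and 0.10 at 72 h. The 2 probes of myeloid and erythroid miRNAs, 1org-144 (Mir144) and 2org-223, had 1.93 and 1.83 at 96 h and 0.17 and -0.21 at 72 h. Of the 4 T cell probes 1 lay above 0 at 96 h, with means of -0.82 to 0.47, and 2 at 72 h, with means of -0.83 to 0.96. After centring, 4 of the 6 epithelial probes and none of the 4 listed T cell probes lay above 0 at 96 h, as did 99 of the 171. In the already turned reading all 6 epithelial, all 4 T cell and both myeloid and erythroid probes lay above 0 at 96 h, as did 161 of the 171. The liver probe stood at -0.79 at 96 h and -1.72 at 72 h in that reading. The part of other cell types in the values of 1org-192, 2org-215 and 1org-194 was not tested.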

How the data were processed

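The authors' deposited table gave each probe a log ratio on every array, taken here as log2. Log base, direction, background correction and normalization are not stated in the labels or the table. Base 10 would exceed a 16-bit scanner's largest log10 ratio of 4.82, while natural logs remain possible. Values ran from -2.27 to 5.10. Probe names came from the platform annotation, updated through gene IDs; 4 of the 6 probes were listed. After turning the sign, dye partners were averaged. An intercept-only limma fit (limma 3.58.1, R 4.3.3) was run on 96 h and 72 h over 171 miRNA probes. It had 1 residual degree of freedom per probe and a pooled SD of 0.68. Its intervals and p-values used limma's total degrees of freedom, which pool over all probes as if these were independent. The fit was also run on simulated independent normal values with the same SD for all probes. They held no dye, array or time offset, so that run cannot show how the fit handles such offsets. Counts past 1.5-fold asked for 1 sign on both arrays. Named probes were the 6, the 2 nearest others to each, and the highest and lowest of each p53 list. Outside that rule, 2org-34, 2org-17-3p, 1org-200a, 1org-200b, 2org-200c, 1org-205 and 1org-145 were named after their values were seen. So were 1org-142-s, 1org-150, 1org-155, 1org-181, 2org-181b, 2org-181c and the liver, myeloid and erythroid probes. The members and lists were chosen with earlier results of these data known. Alternatives were centring, scaling, the other reading, 2-fold, left-out arrays, a dye term, robust variance and controls kept; natural logs and the other reading with centring were chosen after seeing the data.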

Additional observations from a re-analysis of the deposited data

How the results depend on the processing

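Counts are of the 6 probes, with the count over all 171 in brackets. The limma count over both time points was 0 (0) in the likely reading, with U6 and tRNA centring and after scaling and centring. It was also 0 (0) with robust variance and with control RNAs kept. With centring on the miRNA medians it was 0 (2), in the already turned reading 0 (3) and in that reading with centring 0 (7). The absence of calls among the 6 did not hold without the 72 h Cy5-Foxp3 array, where probes outside the 6 were called too. A model of the 4 arrays with dye as a replicate block, whose error is between arrays taken to share RNAs, also called 0 (lowest limma adjusted p of the 6 0.800). Past 1.5-fold at 96 h were 4 (88). The count was 6 (109) with centring on U6 and tRNA, 3 (73) with centring on the miRNA medians, 2 (59) after scaling and centring, 2 (49) at a 2-fold threshold, 2 (58) in the already turned reading and 1 (29) in that reading with centring. It was 3 to 5 with 1 array left out. At 72 h the count was 0 (13), but 5 (96) in the already turned reading, 1 (76) in that reading with centring and 0 to 5 with 1 array left out. Between the time points 1 (12) passed. The count was 2 (41) with centring on the miRNA medians, 4 (71) with centring on U6 and tRNA, 4 (116) in the already turned reading, 2 (35) in that reading with centring, 0 (0) with limma's Foxp3 by time term, and 0 to 5 with 1 array left out. Leaving out 1 array leaves its dye partner alone, so any dye effect then stays in the ratio. The cause of the other shifts was not tested. The RMS differences cannot change with centring. Signal over background was not analysed here, so dim probes could not be set apart.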
